A study of Mus musculus with 6 samples.

Results

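Heparan sulfate proteoglycan core proteins are the protein backbones that carry heparan sulfate chains. The 10 genes described here were agrin (Agrn) and perlecan (Hspg2), the glypicans Gpc1, Gpc3, Gpc4 and Gpc6, and the syndecans Sdc1, Sdc2, Sdc3 and Sdc4, out of 18193 genes on the array. They were chosen by name, with every probe set paired to that symbol alone, which gave 26 probe sets, and the brightest probe set by mean log2 signal over the 6 arrays stood for each gene. All 10 were tested, and 9 of them reached the detection floor, the 40th percentile of probe sets on an array, on all 6 arrays.

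Gene expression was compared between 2 sorted populations of mouse lung cells, with 3 labelled biological replicates each. The Adult group held Lyz2+/EpCAM+ cells from adult lungs, taken by the series as alveolar type II cells, which make surfactant. The E18 group held Muc1+/Pdpn+ cells purified from E18 lungs (embryonic day 18), taken as bipotent progenitors, from which both alveolar cell types arise. No strain, transgene or treatment was given in the sources used here, nor whether animals were pooled. Age and sorted population differ together and cannot be told apart. Differences are log2 values, Adult minus E18, and a difference "passed" at an adjusted p under 0.05 from limma fitted over 13335 genes.

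Heparan sulfate is a long sulfated sugar chain built on a core protein in the Golgi, and its sulfation pattern lets it bind growth factors, morphogens and matrix proteins. Agrin and perlecan are secreted into basement membranes, glypicans are held on the outer cell surface by a lipid anchor, and syndecans span the membrane and reach the cytoskeleton. In the lung, these molecules lie in the basement membrane beneath the alveolar epithelium and on the surfaces of epithelial, mesenchymal and endothelial cells. The signal of a probe set depends on its own sequence, so that levels are compared between groups and not between genes.

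Agrn and Gpc3 were lower in the Adult arrays, by log2 differences of -3.82 and -4.62, Gpc6 was at least 3.71-fold lower, and the other 7 core protein genes did not pass. Thus 3 of 10 fell and 0 rose, where 4.57% of all genes tested fell, 1.41% rose and 5.98% changed in either direction. Gpc6 was under the floor on all Adult arrays and was tested only because it reached the floor on the E18 arrays, so its place in these counts supports nothing about the group of genes. With a floor at the 60th percentile it was not tested, and 2 of 9 fell. Every Adult array was below every E18 array for 4 of the 10, Agrn, Gpc3, Gpc4 and Gpc6, against 18.8% of all genes tested. The median difference was -1.24 over the 10 genes and -0.17 over all genes, and 9 of the 10 differences lay below 0, against 59.0% of all genes. Of the 10, only Gpc6 had values under the floor. Setting those to the floor moved its difference from -2.36 to -1.89, which could not move the median of -1.24. Quantile normalization gave medians of -1.13 for the 10 genes and -0.05 for all genes, and centring each array gave -1.09 and -0.02. The number of core protein genes that passed was 6 without Adult replicate 3 and 2 or 3 when any other array was left out. Of all 13335 genes, 2069 passed as lower without Adult replicate 3, and 42 to 451 when any other array was left out. The plot of signals by array shows the 10 genes side by side.

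**Figure D1:**
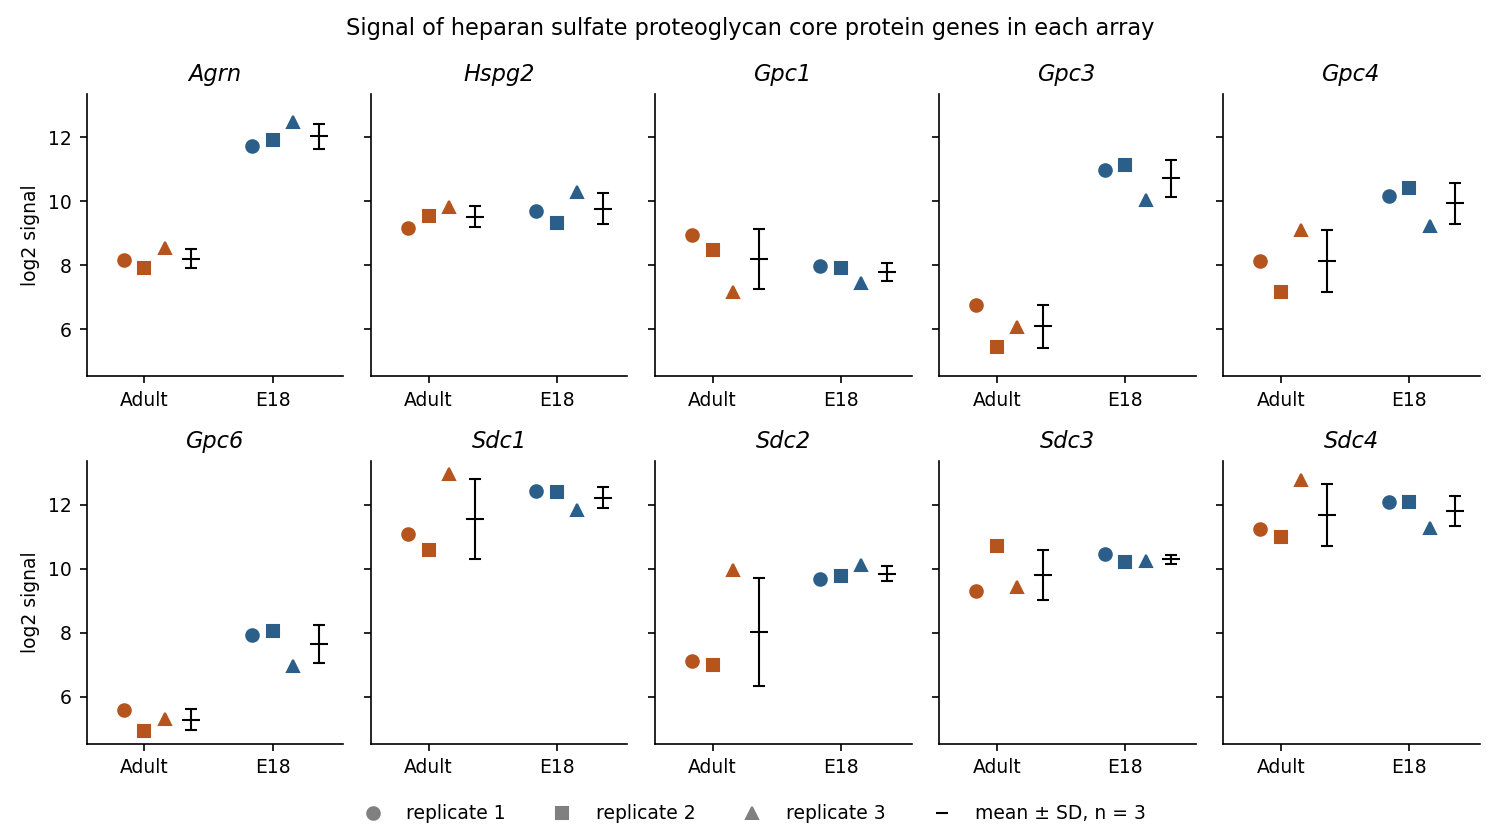
The log2 signal of the main probe set is plotted for each of the 10 genes, with Adult arrays on the left of each panel and E18 arrays on the right, a marker shape per replicate, and the mean with its SD beside them (n = 3). Agrn, Gpc3 and Gpc6 are lower in all Adult arrays than in any E18 array (Gpc6 is under the floor in Adult), and for Sdc1, Sdc2 and Sdc4 the Adult spread comes from replicate 3 lying above the other Adult arrays.

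Some arrays stood apart or went against their labels. Lyz2, by which the Adult cells were sorted, was lower in the arrays labelled Adult (11.28 ± 0.15) than in those labelled E18 (14.15 ± 0.12, log2 mean ± SD, n = 3). Epcam, the other Adult sort marker, had log2 signals of 7.85, 8.50 and 10.68 in Adult replicates 1, 2 and 3 and 10.69, 11.31 and 9.26 in E18 replicates 1, 2 and 3. Of the E18 sort markers, Pdpn went with the labels, with 9.69 ± 0.27 in Adult and 11.96 ± 0.27 in E18 (log2 mean ± SD, n = 3, difference -2.27, limma adjusted p = 0.00924). Muc1 had 7.92, 9.14 and 11.55 in Adult replicates 1, 2 and 3 and 11.77, 11.94 and 11.10 in E18 replicates 1, 2 and 3, and did not pass (adjusted p = 0.206). E18 replicates 1 and 2 were closer to each other (Pearson r = 0.983 over the genes tested) than any other pair of arrays, the next being 0.928. Adult replicate 3 had a summed signal of 51250 over 8 epithelial marker genes, against 3647 and 4297 in Adult replicates 1 and 2 and 23890 to 33907 in the E18 arrays. It also had less leukocyte signal (39590 over 13 genes) than Adult replicates 1 and 2 (139053 and 102595), where the E18 arrays had 29123 to 41883. Signal of 12 mesenchymal markers summed to 10837, 2254 and 1670 in Adult replicates 1, 2 and 3, against 71296, 72866 and 48612 in E18 replicates 1, 2 and 3. Adult replicate 1 had a 3' to 5' log2 difference of 3.55 for the actin control probe sets, where the other 5 arrays had 0.44 to 0.64. The third replicates of both groups had higher poly-A control signals (median log2 of 14.64 in Adult and 14.36 in E18) than the other arrays (10.59 and 11.09 in Adult, 8.62 and 8.34 in E18), a split that no label names.

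Of the cell type lists, genes passed as lower in Adult for 11 of 12 mesenchymal, 3 of 10 endothelial, 3 of 6 mesothelial, 5 of 10 type I, 1 of 9 type II, 0 of 6 airway and 0 of 7 epithelial genes tested, with 0 higher in each, against 4.57% of all genes lower. The type II gene was Lyz2. Without adjustment (limma p under 0.05), the airway genes Scgb1a1 and Krt5 were higher and the epithelial genes Krt7 and Cldn4 lower, where 6.49% of all genes were higher and 15.1% lower by that rule. Plasma cell genes were higher for 6 of 8 and leukocyte genes for 4 of 13, with 0 lower, against 1.41% of all genes higher. Type II markers summed to 50330 to 67134 in the Adult arrays and 58074 to 78177 in the E18 arrays, and none of the 9 was under the floor in all arrays of a group. In bulk samples such as these, fewer cells of a type and less RNA per cell cannot be told apart.

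Agrin, the basement membrane proteoglycan best known for clustering acetylcholine receptors at the neuromuscular junction, was 14.1-fold lower in the Adult arrays. Agrn had signals of 287, 244 and 371 in Adult replicates 1, 2 and 3, against 3372, 3834 and 5659 in E18 replicates 1, 2 and 3. The highest Adult array lay far below the lowest E18 array. The log2 means were 8.21 ± 0.31 in Adult and 12.03 ± 0.39 in E18 (SD, n = 3), a difference of -3.82 (SE 0.33, 95% interval -4.59 to -3.05, limma adjusted p = 0.00303). It passed under all 18 alternatives, with adjusted p from 0.00125 to 0.0340, and its value was lowest in size, -2.48, with the mean of both its probe sets. Replicates 1 and 2 gave -3.77 and replicate 3 gave -3.93. Agrn was highest in E18 replicate 3, which also had the highest summed signal of 10 type I markers, 86779 against 64739 and 63877 in E18 replicates 1 and 2, while the Adult arrays had 14972 to 22451. Epithelial, leukocyte and plasma cell genes also had their highest E18 sums in that array (33907, 41883 and 13999). Of these lists, the type I and epithelial sums were highest in Adult replicate 3 (22451 and 51250), as Agrn was. The leukocyte sum was lowest there (39590), and the plasma cell sum was highest in Adult replicate 1 (74935). The part of cell composition in this difference was not tested. A second Agrn probe set was under the floor on all 6 arrays and was not tested.

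Perlecan, the large proteoglycan of basement membranes and cartilage, did not pass. Hspg2 had signals of 580, 746 and 908 in Adult replicates 1, 2 and 3, and 833, 647 and 1238 in E18 replicates 1, 2 and 3. The groups overlapped, with E18 replicate 2 below both Adult replicates 2 and 3. Hspg2 differed by -0.25 (SE 0.36, 95% interval -1.09 to 0.58, adjusted p = 0.726). Its second probe set, under the floor on 2 of 3 Adult arrays, differed by -2.23 (SE 0.79) and did not pass among all probe sets (adjusted p = 0.171). The log2 ratio of Agrn to Hspg2 within an array was -1.31 ± 0.30 in Adult and 2.26 ± 0.28 in E18 (SD, n = 3), a change of -3.57 with no overlap. The exact two-sided permutation test over arrays gave p = 0.10, the smallest that 3 arrays against 3 allow, and 0.163 after adjustment over the 13 pairs within families. Of the 13 pairs, with Gpc6 as measured, 8 had ratios without overlap, and the ratios given here and below are among them. The share over pairs of other genes was not taken.

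The start regions of Agrn and Hspg2 are shown as a pair of basement membrane genes, of which Agrn fell and Hspg2 did not pass. The bases are those upstream of the gene's outermost annotated start, 5′ to 3′ on the gene's strand, from RefSeq (GRCm38.p6). Capitals mark the GC box, GGGCGG or its reverse complement CCGCCC, with overlapping matches run together.
Agrn (chr4:156197534-156197738, minus strand): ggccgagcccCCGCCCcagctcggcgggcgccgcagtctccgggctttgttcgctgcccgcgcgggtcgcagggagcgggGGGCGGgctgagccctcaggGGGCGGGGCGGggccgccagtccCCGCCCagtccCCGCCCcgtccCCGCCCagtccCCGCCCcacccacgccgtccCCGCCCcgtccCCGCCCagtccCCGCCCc
Hspg2 (chr4:137468553-137468750, plus strand): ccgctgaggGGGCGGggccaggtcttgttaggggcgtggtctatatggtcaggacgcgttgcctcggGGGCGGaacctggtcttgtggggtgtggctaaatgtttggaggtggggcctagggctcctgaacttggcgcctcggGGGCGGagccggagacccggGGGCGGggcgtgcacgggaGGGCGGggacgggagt
The full 300-base window held 12 GC boxes for Agrn and 5 for Hspg2, counting overlaps and both strands. At least 1 GC box was present in 35.7% of all 32851 RefSeq windows of that length. A second Agrn window, which begins inside the gene, held 2. None of the windows of the 7 core protein genes with one held the TATA box letters TATAAA on either strand, which 13.6% of all windows did. The share of G and C was 83.3% for Agrn and 70.3% for Hspg2, against a median of 52.7% over all windows. These matches describe letters in the window and were not tested as sites.

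Glypicans were mixed, since Gpc3 and Gpc6 fell, Gpc4 did not pass and Gpc1 had a difference above 0 that did not pass. Gpc3, a regulator of hedgehog and growth factor signalling whose loss causes an overgrowth syndrome in humans, had the largest difference of the 10 genes. Its signals were 109, 43.6 and 67.4 in Adult replicates 1, 2 and 3, against 1998, 2246 and 1061 in E18 replicates 1, 2 and 3. The Adult values of replicates 2 and 3 lay just above the floors of those arrays, which were 42.3 and 66.5. The log2 means were 6.10 ± 0.66 in Adult and 10.72 ± 0.58 in E18 (SD, n = 3), a difference of -4.62 or 24.6-fold lower (SE 0.47, adjusted p = 0.00460). All 18 alternatives kept the call, with adjusted p from 0.00219 to 0.0424. Replicates 1 and 2 gave -4.94 and replicate 3 gave -3.98.

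Gpc6, a glypican whose loss causes a skeletal dysplasia in humans, was under the floor in all Adult arrays. Its signals were 48.2, 30.7 and 39.9 in Adult replicates 1, 2 and 3, against 245, 264 and 124 in E18 replicates 1, 2 and 3. With Adult values set to the floor, Gpc6 was at least 3.71-fold lower in Adult (measured log2 means 5.28 ± 0.33 in Adult and 7.65 ± 0.60 in E18, SD, n = 3, adjusted p = 0.0330). Another of its 5 probe sets also passed among all probe sets, with 2.78 ± 1.47 in Adult and 7.29 ± 1.02 in E18 as measured (adjusted p = 0.0359). It too was under the floor on all Adult arrays and was tested only through the E18 arrays, so its call adds no support. The remaining pair that was tested differed by -2.54 and -1.11 without passing, and the fifth was too dim to test. The call depended on single arrays, since leaving out Adult replicate 1 gave an adjusted p of 0.0550, Adult replicate 2 gave 0.102, E18 replicate 1 gave 0.197 and E18 replicate 2 gave 0.202.

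Gpc3 was highest in Adult replicate 1 among the Adult arrays, and both Gpc3 and Gpc6 were lowest in E18 replicate 3 among the E18 arrays. The Adult values of Gpc6, all under the floor, have no order. Mesenchymal markers were likewise highest in Adult replicate 1 and lowest in E18 replicate 3 within their groups, with a mean log2 signal of 8.78, 6.60 and 6.33 in Adult replicates 1, 2 and 3 and 12.20, 12.21 and 11.43 in E18 replicates 1, 2 and 3. None of the 12 markers was under the floor in all arrays of a group. Mesothelial markers had the same highest Adult and lowest E18 array. In Adult replicates 1, 2 and 3 their mean log2 signals were 7.19, 6.08 and 6.15. In E18 replicates 1, 2 and 3 they were 9.32, 9.81 and 8.54. Endothelial markers were also lowest in E18 replicate 3 (8.65, against 10.33 and 10.45), but highest in Adult replicate 2 (7.73). Of the 6 mesothelial markers, 1 was under the floor in all Adult arrays, as was 1 of the 10 endothelial markers. The part of mesenchymal, mesothelial or endothelial RNA in the glypican differences was not tested. The plot of glypicans and syndecans against marker signal shows these arrays.

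**Figure D2:**
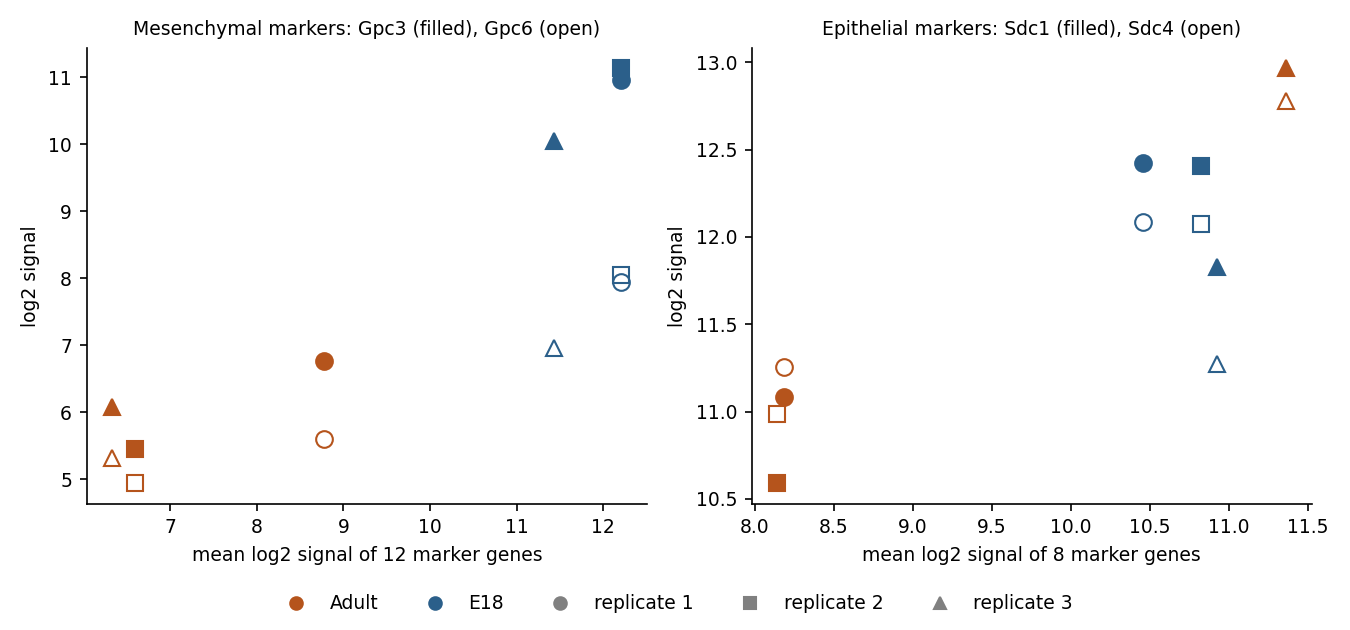
Each point is an array, coloured by group and shaped by replicate, with the mean log2 signal of marker genes on the horizontal axis and the log2 signal of the core protein gene on the vertical axis. On the left, Gpc3 (filled) and Gpc6 (open, under the floor in all Adult arrays) are set against 12 mesenchymal markers, where Adult arrays lie between 6.33 and 8.78 and E18 arrays between 11.43 and 12.21. On the right, Sdc1 (filled) and Sdc4 (open) are set against 8 epithelial markers, where Adult replicate 3 lies apart at 11.36 from the other Adult arrays at 8.19 and 8.14.

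Gpc4, a glypican that modulates Wnt and growth factor signalling, had signals of 279, 144 and 549 in Adult replicates 1, 2 and 3, against 1160, 1378 and 597 in E18 replicates 1, 2 and 3. The groups did not overlap, though Adult replicate 3 came close to E18 replicate 3. The log2 difference was -1.81 (SE 0.56, 95% interval -3.11 to -0.51, adjusted p = 0.113), and it was -2.29 without Adult replicate 3 (adjusted p = 0.0164). Replicates 1 and 2 gave -2.66 and replicate 3 gave -0.12. Its dimmer probe set differed by -3.19 (adjusted p = 0.164 among all probe sets).

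Gpc1, a glypican that acts as a co-receptor for fibroblast growth factors, had signals of 498, 361 and 143 in Adult replicates 1, 2 and 3, against 255, 239 and 176 in E18 replicates 1, 2 and 3. Adult replicate 3 was the lowest of the 6 arrays and the other Adult arrays were the highest. Gpc1 differed by 0.42 (SE 0.51, 95% interval -0.77 to 1.61, adjusted p = 0.682), with 0.78 in replicates 1 and 2 and -0.29 in replicate 3. Adult replicate 3 was likewise the Adult array with the least leukocyte signal. In E18, replicate 3 had the lowest Gpc1 but the highest mean log2 leukocyte signal (8.44, against 7.89 and 7.83). Endothelial and mesenchymal markers were lowest in replicate 3 of each group, as Gpc1 was (6.65 and 6.33 in Adult, 8.65 and 11.43 in E18). The part of leukocyte, endothelial or mesenchymal RNA in the Gpc1 values was not tested.

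Gpc3 and Gpc4 are neighbours on the X chromosome, with 0 annotated genes between them in RefSeq. Their log2 ratio within an array was -2.04 ± 0.88 in Adult and 0.77 ± 0.06 in E18 (SD, n = 3), a change of -2.81 without overlap (exact permutation p = 0.10, the smallest possible, adjusted 0.163). The ratio of Gpc1 to Gpc3 changed by 5.04 with the same exact p of 0.10. Ratios to Gpc6 are not given, since its Adult values were under the floor. The start regions of the neighbours are shown because Gpc3 passed and Gpc4 did not, with the GC box in capitals as above.
Gpc3 (chrX:52613975-52614224, minus strand): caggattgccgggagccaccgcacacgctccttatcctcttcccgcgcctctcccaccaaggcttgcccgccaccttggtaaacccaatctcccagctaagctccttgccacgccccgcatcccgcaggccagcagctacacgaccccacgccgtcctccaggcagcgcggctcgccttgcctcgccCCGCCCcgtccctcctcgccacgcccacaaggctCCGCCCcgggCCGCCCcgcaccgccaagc
Gpc4 (chrX:52164924-52165173, minus strand): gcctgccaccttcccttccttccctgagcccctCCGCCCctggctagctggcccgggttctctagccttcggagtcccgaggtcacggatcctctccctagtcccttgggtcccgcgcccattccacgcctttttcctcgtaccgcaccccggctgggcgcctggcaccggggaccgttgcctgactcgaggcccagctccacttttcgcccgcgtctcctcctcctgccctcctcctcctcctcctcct
The full windows held 4 GC boxes for Gpc3 and 1 for Gpc4, and their shares of G and C were 70.7% and 66.7%.

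Syndecans did not pass in the comparison of all arrays, and their Adult values split by array. Sdc1, the main syndecan of epithelia and, as CD138, a marker of plasma cells, had signals of 2168, 1543 and 7989 in Adult replicates 1, 2 and 3, against 5483, 5427 and 3642 in E18 replicates 1, 2 and 3. Adult replicates 1 and 2 lay below every E18 array and Adult replicate 3 above every one. The log2 difference was -0.67 (SE 0.59, 95% interval -2.06 to 0.71, adjusted p = 0.564). Leaving out Adult replicate 3 gave -1.38 (adjusted p = 0.0275). Replicates 1 and 2 gave -1.58, and replicate 3 gave 1.13. The 2 other probe sets that could be tested differed by -1.58 and -0.79 without passing. Plasma cell genes had summed signals of 74935, 66041 and 72995 over 8 genes in Adult replicates 1, 2 and 3 and 10516 to 13999 in the E18 arrays. The part of plasma cell RNA in the Sdc1 values was not tested.

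Sdc4, the syndecan of focal adhesions, showed the same split as Sdc1. Its signals were 2448, 2025 and 7014 in Adult replicates 1, 2 and 3, against 4350, 4308 and 2478 in E18 replicates 1, 2 and 3. Sdc4 differed by -0.14 (SE 0.51, 95% interval -1.33 to 1.05, adjusted p = 0.901), and its sign turned to 0.01 with arrays centred on their medians, 0.07 without Adult replicate 1 and 0.21 without Adult replicate 2. Replicates 1 and 2 gave -0.96 (adjusted p = 0.0613) and replicate 3 gave 1.501. The dimmer probe set differed by -0.99 (adjusted p = 0.420 among all probe sets). The log2 ratio of Sdc1 to Sdc4 was -0.13 ± 0.29 in Adult and 0.41 ± 0.13 in E18 (SD, n = 3), a change of -0.53 (exact permutation p = 0.10, adjusted 0.163).

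Sdc2, the syndecan of fibroblasts and endothelium, had signals of 140, 127 and 1005 in Adult replicates 1, 2 and 3, against 822, 868 and 1100 in E18 replicates 1, 2 and 3. Adult replicates 1 and 2 were below every E18 array, while Adult replicate 3 fell within the E18 range. Sdc2 differed by -1.82 (SE 0.76, 95% interval -3.60 to -0.04, adjusted p = 0.223). Leaving out Adult replicate 3 gave -2.79 (adjusted p = 0.00199). Replicates 1 and 2 gave -2.66 (adjusted p = 0.00519), and replicate 3 gave -0.13. Of its 3 other probe sets, those tested differed by -2.20 and -1.05 without passing, and the last was under the floor on all 6 arrays.

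Sdc3, the syndecan most studied in neural tissue and muscle, did not follow Adult replicate 3. Its signals were 631, 1673 and 684 in Adult replicates 1, 2 and 3, against 1413, 1174 and 1211 in E18 replicates 1, 2 and 3, so that Adult replicate 2 was the highest array and the other Adult arrays were the lowest. Sdc3 differed by -0.49 (SE 0.42, 95% interval -1.47 to 0.49, adjusted p = 0.551). Its other probe sets differed by 0.36 and -0.96 without passing.

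The epithelial markers beside these values had a mean log2 signal of 8.19, 8.14 and 11.36 in Adult replicates 1, 2 and 3, against 10.45, 10.83 and 10.92 in E18 replicates 1, 2 and 3. Sdc1, Sdc2 and Sdc4 were likewise highest in Adult replicate 3 among the Adult arrays. Among the E18 arrays, where the epithelial markers were highest in replicate 3, Sdc2 was highest and Sdc1 and Sdc4 were lowest in that replicate. Of the 8 epithelial markers, 1 was under the floor in all E18 arrays and none was in all Adult arrays. Airway markers had mean log2 signals of 8.40, 7.77 and 10.54 in Adult replicates 1, 2 and 3. In E18 replicates 1, 2 and 3 the airway markers had 9.12, 8.88 and 8.60. Of the 8 airway markers, 2 were under the floor in all Adult arrays and 2 in all E18 arrays. Type II markers had 11.43, 11.74 and 12.25 in Adult replicates 1, 2 and 3. In E18 replicates 1, 2 and 3 the type II markers had 12.72, 12.69 and 11.88. Type I markers had 9.52, 9.22 and 9.56 in Adult replicates 1, 2 and 3, and 11.69, 11.68 and 12.16 in E18 replicates 1, 2 and 3. Plasma cell genes had 11.38, 11.69 and 11.70 in those Adult arrays and 7.63, 7.61 and 9.01 in those E18 arrays. The part of epithelial, airway, type I, type II or plasma cell RNA in the syndecan values was not tested.

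The third replicates shared higher poly-A control signals, so differences were also taken within each set of replicates. In replicates 1 and 2 alone, 6 of the 10 core protein genes passed as lower (Agrn, Gpc3, Gpc4, Gpc6, Sdc1 and Sdc2), where 16.5% of all genes tested did. The median difference there was -2.12 over the 10 genes and -0.32 over all genes. In replicate 3, with 1 array against 1 and no test, the medians were -0.37 and 0.01. Agrn, Gpc3 and Gpc6 differed by -3.93, -3.98 and -1.64 in replicate 3 (the Gpc6 value as measured, with Adult under the floor), while Gpc4, Sdc2 and Gpc1 lay between -0.29 and -0.12. With the third replicates as a block, the same number of core protein genes, 3, passed. The bar plot of differences by set of replicates shows the split.

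**Figure D3:**
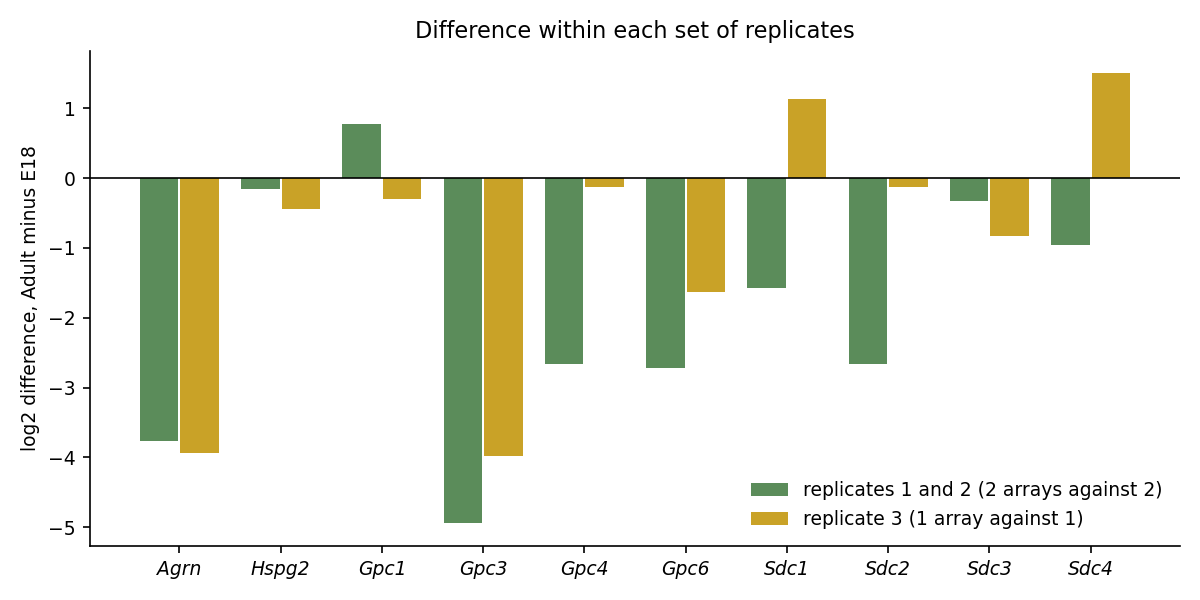
Bars give the log2 difference, Adult minus E18, for each gene in replicates 1 and 2 (mean of 2 arrays against 2) and in replicate 3 (1 array against 1). Agrn, Gpc3 and Gpc6 lie below 0 in both sets, and Sdc1 and Sdc4 lie below 0 in replicates 1 and 2 (-1.58 and -0.96) and above 0 in replicate 3 (1.13 and 1.501).

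Of the 26 probe sets of the 10 genes, 22 were bright enough to test. When all probe sets were fitted together, 4 passed as lower and 0 as higher, where 3.51% of all probe sets passed as lower. They were the main probe sets of Agrn, Gpc3 and Gpc6 and another of Gpc6. Both Gpc6 probe sets were under the floor on all Adult arrays and were tested only through the E18 arrays, so their place in this count supports nothing. Of the 22, 20 differences lay below 0 and 2 above, which were those of Gpc1 and of a dimmer Sdc3 probe set. Probe sets of 1 gene share its transcripts and are not replicates. Gpc1 and Gpc3 had 1 probe set each, so nothing on the array checks theirs. The plot of differences by probe set shows how far those of Hspg2 and Gpc6 lay from each other.

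**Figure D4:**
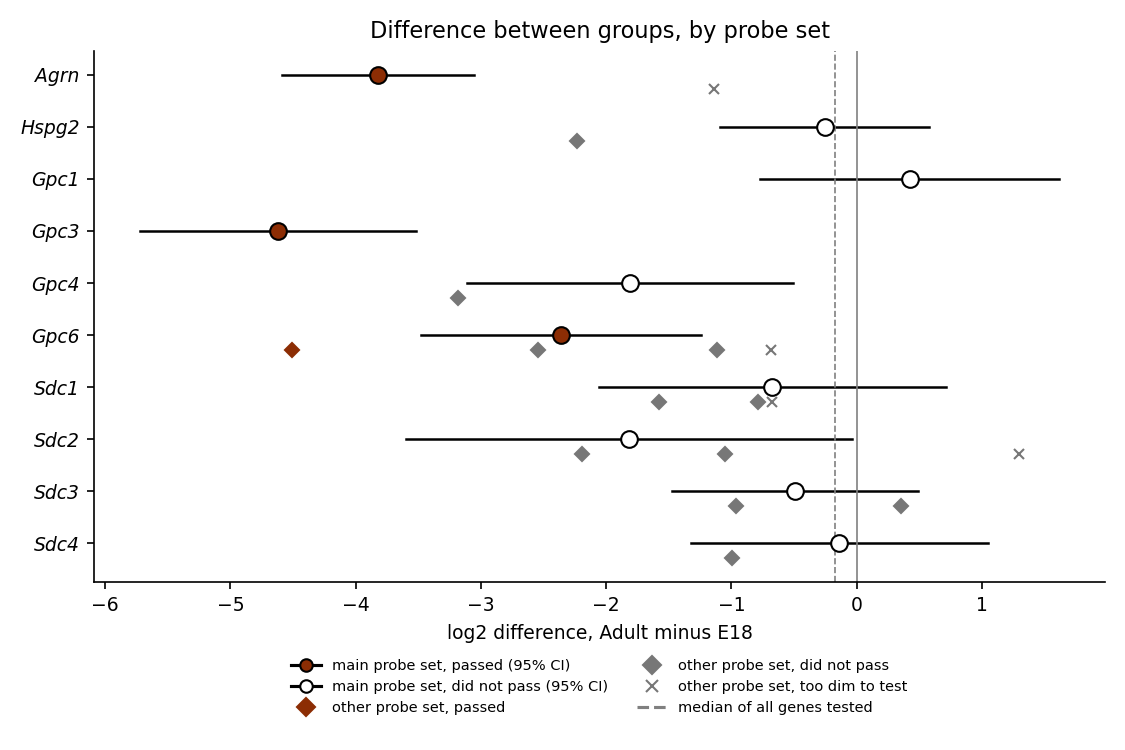
The log2 difference, Adult minus E18, is plotted for the main probe set of each gene with its 95% interval (circles, filled where passed) and for its other probe sets below it (diamonds, filled dark where passed; crosses where too dim to test). Filled circles are at -3.82 for Agrn, -4.62 for Gpc3 and -2.36 for Gpc6 (as measured, with Adult under the floor), and the dashed line marks the median of all genes at -0.17.

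By Pearson correlation of log2 signal over the 6 arrays, the genes most like Gpc3 were the metalloprotease Adamts9 (r = 0.999), the lung mesenchymal transcription factor Tcf21 (0.999) and the centromere protein gene Cenpk (0.999). Those most like Agrn were Zbtb8b (0.997), Igfbp7 (0.997) and Mrm2 (0.997), and those most like Gpc6 were Iigp1 (0.999), Rnaseh2b (0.998) and Cblif (0.998). The Gpc6 correlations use its Adult values as measured, all under the floor, so the rank of these genes carries little weight. Tcf21 was itself one of the mesenchymal markers. With 6 arrays in 2 groups, such values mostly reflect the group means and are given as a description.

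Among the enzymes that build and shape heparan sulfate chains, 1 gene, Hs2st1, passed, and shares this low are near the 5.98% of all genes that changed. Of 18 genes for the linker, chain elongation and sugar or sulfate supply, 0 fell and 0 rose in the limma fit, with a median of -0.14 against -0.17 for all genes, and at an unadjusted p under 0.05 Ugdh and Ext2 were lower and Slc26a2 higher, where 15.1% of all genes were lower and 6.49% higher. Ugdh, which makes the UDP-glucuronic acid used in the chain, differed by -1.07 (10.48 ± 0.10 in Adult and 11.56 ± 0.40 in E18, log2 mean ± SD, n = 3, adjusted p = 0.0890). Uxs1, which makes UDP-xylose for the linker, differed by -0.52 (adjusted p = 0.603). Of 9 sulfation and epimerase genes tested, 1 fell and 0 rose, with a median of -0.08. It was Hs2st1, the 2-O-sulfotransferase, with 9.63 ± 0.28 in Adult and 11.90 ± 0.34 in E18, a difference of -2.27 (SE 0.31, adjusted p = 0.0105). Glce, the epimerase that precedes it in the pathway, differed by -0.08 (SE 0.29, 95% interval -0.76 to 0.59, adjusted p = 0.896), a sign that turned with the scaling. Of 11 editing and degradation genes, 0 fell and 0 rose in the limma fit, with a median of 0.05, and 1, Sulf1, was lower at an unadjusted p under 0.05. Sulf1, an extracellular sulfatase named after its values were seen, had 6.83 ± 1.11 in Adult and 9.62 ± 1.01 in E18 (log2 mean ± SD, n = 3), a difference of -2.79 without overlap that did not pass (SE 0.70, adjusted p = 0.0616). The other extracellular sulfatase, Sulf2, differed by 0.29 (adjusted p = 0.624) and the lysosomal sulfatase Ids by 0.65 (adjusted p = 0.259). The Hs2st1 call was lost when E18 replicate 1 (adjusted p = 0.0745) or E18 replicate 2 (0.0700) was left out and with the mean of its probe sets (0.0574), and 2 sulfation genes fell without Adult replicate 3. Without that array, 2069 of all 13335 genes fell.

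Other carriers of heparan sulfate were described from the same fit. Of 6 tested, 1 fell and 0 rose, where 4.57% of all genes fell and 1.41% rose. The median of the 6 was -0.91, against -0.17 for all genes. Col18a1, the basement membrane collagen that releases endostatin, was 10.3-fold lower (6.69 ± 0.88 in Adult and 10.05 ± 0.89 in E18, difference -3.36, SE 0.60, adjusted p = 0.0227). Srgn, the proteoglycan of blood cell granules, had 14.52 ± 0.63 in Adult and 13.38 ± 0.50 in E18 (adjusted p = 0.160). Cd44, a hyaluronan receptor with variants that carry heparan sulfate, differed by 0.43 (adjusted p = 0.443), and by -0.06 after quantile normalization. The glypicans Gpc2 and Gpc5, named after their values were seen, were under the floor on all 6 arrays and were not tested. The adjusted p of Col18a1 was 0.0941 without Adult replicate 2, 0.125 when E18 replicate 1 was left out and 0.123 for E18 replicate 2, and 2 carriers fell and 1 rose without Adult replicate 3. Of all 13335 genes, 2069 fell and 701 rose without that array.

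Partners of the core proteins and proteases that act on them had a median of -1.45 over 18 genes, of which 4 fell and 0 rose. Over all genes tested, 4.57% fell and 1.41% rose, with a median of -0.17. Mmp2, a matrix metalloproteinase, fell by 4.13 on the log2 scale (7.78 ± 0.42 in Adult and 11.91 ± 0.41 in E18, SE 0.36, adjusted p = 0.00303). Pcsk5, a proprotein convertase, fell by 3.60 (SE 0.51, adjusted p = 0.0111) and Mmp14, the membrane metalloproteinase that activates Mmp2, fell by 2.68 (SE 0.53, adjusted p = 0.0298). Dag1, the dystroglycan precursor through which cells bind agrin, perlecan and laminins, had 11.04 ± 0.26 in Adult and 12.75 ± 0.21 in E18, a difference of -1.71 (SE 0.28, adjusted p = 0.0171). Of the 18, 10 had Adult arrays lower than the E18 arrays without overlap, against the 18.8% of all genes. Leaving out Adult replicate 2 left 2 that fell, E18 replicate 3 left 2, E18 replicate 1 or 2 left 1 each, and leaving out Adult replicate 3 gave 9. Of all 13335 genes, 2069 fell without Adult replicate 3 and 42 to 394 in the other cases.

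Growth factors and guidance ligands that bind heparan sulfate had differences below 0 for all 18 genes tested, with a median of -2.003. Of all genes tested, 59.0% had a difference below 0, and the median was -0.17. Of the 18 ligands, 7 fell and 0 rose, where 4.57% of all genes fell and 1.41% rose. Slit2, a guidance ligand whose binding to Robo receptors needs heparan sulfate, fell by 4.51 (7.10 ± 1.46 in Adult and 11.60 ± 0.81 in E18, SE 0.75, adjusted p = 0.0178). Shh, the hedgehog ligand of lung epithelium, fell by 3.38 (8.63 ± 1.77 in Adult and 12.01 ± 0.04 in E18, adjusted p = 0.0499). Ptn, the heparin-binding growth factor pleiotrophin, fell by 3.32 as measured, with Adult replicate 2 under the floor (adjusted p = 0.0496). Fgf18 was at least 4.55-fold lower, under the floor in all Adult arrays (adjusted p = 0.0176). Fgf18 was tested only through the E18 arrays, as was Fgf10, which did not pass. Their place in these counts supports nothing about the list. Leaving out Adult replicate 2 left 2 that fell, E18 replicate 3 left 3, E18 replicate 1 or 2 left 0, and leaving out Adult replicate 3 gave 15. Of all 13335 genes, 2069 fell without Adult replicate 3 and 42 to 394 in the other cases. Over the 20 ligands on the array, the mean log2 signal was 6.88, 6.01 and 7.43 in Adult replicates 1, 2 and 3, against 9.04, 8.87 and 8.62 in E18 replicates 1, 2 and 3. Of the 20, 4 were under the floor in all Adult arrays and 1 in all E18 arrays. The ligand mean was highest in Adult replicate 3, as for the epithelial, airway and type II markers. Type I markers (9.52, 9.22 and 9.56 in Adult replicates 1, 2 and 3) and plasma cell genes (11.38, 11.69 and 11.70) were also highest there. In E18 the ligand mean was lowest in replicate 3, as for the mesenchymal, mesothelial, endothelial, airway and type II markers. The part of any of these cell types in the ligands was not tested.

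Proteoglycans that carry chondroitin, dermatan or keratan sulfate had a median of -1.84 over 12 genes, of which 4 fell and 0 rose. Among all genes tested, 4.57% fell and 1.41% rose, and the median was -0.17. Aspn, the small leucine-rich protein asporin, was at least 9.04-fold lower, under the floor in all Adult arrays (4.41 ± 0.25 in Adult and 8.93 ± 0.24 in E18, adjusted p = 0.00303). Aspn was tested only through the E18 arrays, so its place in the count supports nothing about the list. Ogn, or osteoglycin, differed by -3.71 (adjusted p = 0.0278) and Dcn, or decorin, differed by -1.67 (9.15 ± 0.32 in Adult and 10.82 ± 0.28 in E18, adjusted p = 0.0258). Lum, or lumican, differed by -2.46 as measured (adjusted p = 0.0270), with Adult replicates 2 and 3 under the floor. Aspn, Ogn, Lum and Dcn are genes of fibroblasts. Over the 14 genes of the list on the array, the mean log2 signal was 7.11, 6.22 and 6.53 in Adult replicates 1, 2 and 3 and 8.56, 8.56 and 8.12 in E18 replicates 1, 2 and 3. Of the 14, 2 were under the floor in all Adult arrays and 1 in all E18 arrays. The highest Adult array and the lowest E18 array were the same as for the mesenchymal and the mesothelial markers. The part of mesenchymal or mesothelial RNA in the list was not tested. Leaving out Adult replicate 3 gave 6 that fell, and leaving out Adult replicate 2 or any E18 array left 1. Of all 13335 genes, 2069 fell without Adult replicate 3 and 42 to 394 in the other cases.

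**Figure D5:**
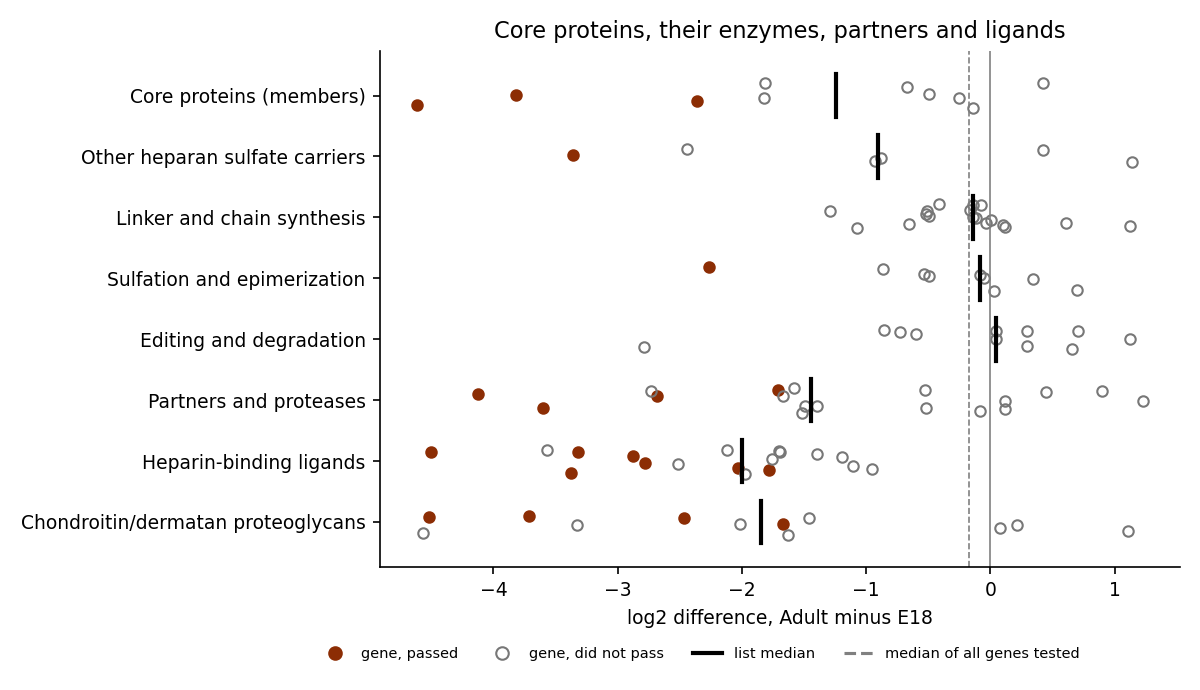
Each point is a gene tested, placed by its log2 difference, Adult minus E18, with filled points for genes that passed and a black bar at the list median. List medians run from -2.003 for heparin-binding ligands to 0.05 for editing and degradation enzymes, and the dashed line marks the median of all genes at -0.17.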

How the data were processed

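Lung cells of 2 sorted populations were profiled with 1 Affymetrix whole-genome mouse 3' array per sample, 3 arrays per group, after 2 cycles of amplification per the labels' protocols. The deposited values were linear signal intensities per probe set. The authors made them with MAS5 in Affymetrix Expression Console, as the submitters' processing notes give it. The trimmed mean of each array was close to 500.003, which shows the scaling applied before deposit. No genome build is named in the labels or headers.

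The deposited intensities were all above 0 and were log2-transformed without a pseudocount or added normalization. Of 45101 probe sets, 34945 paired with exactly 1 gene symbol, 932 with several, 9160 with none, and 64 were controls. The brightest probe set by mean log2 signal stood for each of 18193 genes. A gene was tested where its signal was at or above the 40th percentile of the array (the floor, a rank and not a measured background) in 3 or more of the 6 arrays, which kept 13335 genes. The comparison used limma 3.58.1 under R 4.3.3 (linear model, intensity trend, two-sided, Benjamini-Hochberg adjustment over all 13335 genes, threshold 0.05). Each adjusted p for a gene comes from that fit, and SE and 95% intervals are its moderated ones. Probe sets were also fitted together. On simulated data drawn from the 13335 genes, with 200 genes changed, the share recovered was 0% for log2 changes of 1, 26% for 2, 80% for 4 and 92% for 6, and of 100 calls 1 was false. The number of arrays limits the precision.

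The members and the gene lists were chosen with earlier results of these data known, so that counts over them are descriptions. The lists came from general knowledge and held 209 entries, of which 202 matched a gene. Within a list, genes were named by the size of their difference, up to 4 of those past the threshold, with the 2 brightest named where under 2 were, and any other gene named was chosen after its values were seen. Promoter windows came from RefSeq (GRCm38.p6) and were matched by symbol for 7 of 10 members. The 18 alternatives covered scaling, filters, the probe set rule, the variance prior, blocks and leaving out arrays.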

Additional observations from a re-analysis of the deposited data

How the results depend on the processing

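Agrn and Gpc3 passed, in the same direction, in all 18 alternatives. Leaving out each array gave Agrn -3.98 to -3.60, Gpc3 -4.96 to -4.29, Gpc6 -2.71 to -2.16, Gpc4 -2.29 to -1.33, Gpc1 0.04 to 0.94, Hspg2 -0.47 to -0.00342, Sdc1 -1.38 to -0.20, Sdc2 -2.79 to -1.30, Sdc3 -0.94 to -0.24 and Sdc4 -0.69 to 0.21. Counts ranged from 66 to 2770 genes, against 798 with all arrays, and from 2 to 6 core protein genes, against 3. Gpc6 no longer passed with the replicate block (-2.36, SE 0.53, adjusted p = 0.0785) or with E18 replicates 1 and 2 averaged (-2.19, SE 0.64). Its SE was 0.48 in the main fit. Both fits left fewer degrees of freedom, as did replicates 1 and 2 alone, where Gpc6 passed (limma adjusted p = 0.0128). The cause of the lost calls was not tested. The Sdc4 difference reversed with arrays centred on their medians (0.0147), without Adult replicate 1 (0.07) and without Adult replicate 2 (0.21). In replicates 1 and 2 alone, 2996 genes and 6 core protein genes passed, with Gpc4 at -2.66, Sdc1 at -1.58 and Sdc2 at -2.66 now among them, and the cause was not tested. Replicate 3 alone, an alternative added after the data were seen, gave Gpc1 -0.29, Gpc3 -3.98, Gpc4 -0.12, Gpc6 -1.64, Sdc1 1.13, Sdc2 -0.13 and Sdc4 1.501. The count of genes was 492 with the replicate block and 63 with E18 replicates 1 and 2 averaged.

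Same-numbered replicates did not deviate together (correlations of deviations from the group means of 0.04, -0.14 and -0.06 for numbers 1, 2 and 3), so the numbers were not taken as pairs. With the block, 2 core protein genes passed, and the Gpc6 call was the one lost. Of the 14 named list genes that passed, only Aspn and Mmp2 passed under each of the alternatives, and 12 were lost without E18 replicate 1 and 12 without E18 replicate 2. Values near the floor, such as those of Gpc3 and Gpc6 in Adult, are limited by dim signal. Cd44 reversed after quantile normalization (-0.0644). Glce reversed after quantile normalization (0.0923), with centred arrays (0.0697), with the mean of its probe sets (0.461), in replicates 1 and 2 alone (0.00419) and without Adult replicate 3 (0.0659), and its values with 1 array left out ran from -0.174 to 0.0659. A floor at the 60th percentile left Gpc6 untested, and its values here are as measured, with Adult under the floor.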
